A study of Mus musculus with 12 samples.

Results

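The mitotic and S phase proliferation genes are 43 mouse genes whose RNA is made mostly in dividing cells, listed by name for their roles in DNA synthesis, mitosis and cytokinesis. All 43 were found among the 28529 gene lines kept from the deposited table, and all 43 passed the filter on low counts that left 21203 genes tested. They were followed in bulk RNA of cornea from wild-type (WT) mice in 4 groups: 3 libraries from mice without treatment (control), 3 from a DED model (dry eye disease), 2 from DED mice given exosomes as an eye drop and 3 from DED mice given exosomes intravenously (i.v.). Exosomes are small vesicles that cells release; the series title names stem cells as their source. The labels list 3 eye drop samples, but the deposited column of the last equalled the mean of the other columns of that group and was left out. The labels give no age, no sex and no DED mice that received a drop or an injection without exosomes, so the exosomes cannot be told apart from the drop, the injection or the handling. All libraries carry the same batch date, so that date cannot separate the libraries into batches. Nothing in the labels says whether a library came from 1 animal or from several, so the p-values measure the spread between these libraries, which may be technical.

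The corneal epithelium is renewed throughout life by division of its basal cells, which supply the layers above them, with stem cells at the limbus as their source. A dividing cell first makes nucleotides and copies its DNA in S phase. It then switches on cyclin B, CDK1 and a set of mitotic genes in G2, builds a spindle, separates its chromosomes and cuts itself apart. Most of these mitotic genes are held off in resting cells by the DREAM complex and are switched on in cycling cells by MYBL2 (B-MYB) and FOXM1, with the DNA elements called the CCAAT box and the CHR (cell cycle genes homology region) in their promoters. In bulk tissue, fewer dividing cells and less of these RNAs per cell cannot be told apart.

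Promoter windows show which of these elements the members carry. RefSeq windows on GRCm38.p6, from 250 bases before to 50 after the annotated start, matched 36 of the 43 members in 39 windows. The CHR was searched as TTTGAA or TTCGAA and the CCAAT box as CCAAT, each on both strands, and no site of one kind overlapped one of another kind in a member's window. A CHR match was found in 25 of 39 member windows (64.1%) and in 19.2% of all 32851 windows of that length. A CCAAT match was found in 29 of 39 (74.4%) against 37.4% of all windows, and both together in 22 of 39 (56.4%) against 7.5%. E2F matches (TTTCCCGC, TTTGGCGC, TTTCGCGC or TTTGCCGC) were found in 2 of 39 windows (5.1%) against 2.3%. None of the 6 windows of the S phase and nucleotide genes held a CHR, compared with 25 of the 33 windows of the other members. A match is a description of the letters and not evidence of binding.

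The windows of 4 members that fell in the intravenous group are given because they show these arrangements, with CHR and CCAAT matches on either strand in capitals. The other members called against DED varied. Prc1 held both kinds, Anln and Ndc80 a CHR without CCAAT, and Rrm1 and Uhrf1 CCAAT without a CHR. Nusap1 held neither, and Foxm1 had no window. Top2a (chr11:99024140-99024439, minus strand) held 4 CHR and 6 CCAAT matches, the CHR nearest to the start beginning 23 bases before it. Kif11 (chr19:37376132-37376431, plus strand) held a CCAAT match 45 bases and a CHR 19 bases before the start. Plk1 (chr7:122159185-122159484, plus strand) held a CCAAT match 14 bases before the start and a CHR at base 31 after it. Rrm2 (chr12:24708004-24708303, plus strand), an S phase gene, held a CCAAT match 50 bases before the start and no CHR.
Top2a: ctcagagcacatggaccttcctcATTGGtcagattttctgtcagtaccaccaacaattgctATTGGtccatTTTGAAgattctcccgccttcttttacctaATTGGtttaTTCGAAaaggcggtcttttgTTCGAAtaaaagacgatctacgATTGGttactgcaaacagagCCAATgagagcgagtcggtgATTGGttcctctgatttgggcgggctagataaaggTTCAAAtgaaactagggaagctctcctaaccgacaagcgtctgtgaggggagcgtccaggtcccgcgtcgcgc
Kif11: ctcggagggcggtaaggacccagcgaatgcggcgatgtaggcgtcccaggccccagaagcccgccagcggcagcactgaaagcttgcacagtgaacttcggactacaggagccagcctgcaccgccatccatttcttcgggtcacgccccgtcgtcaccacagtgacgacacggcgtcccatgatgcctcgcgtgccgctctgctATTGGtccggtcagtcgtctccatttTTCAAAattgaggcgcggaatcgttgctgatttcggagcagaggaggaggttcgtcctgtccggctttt
Plk1: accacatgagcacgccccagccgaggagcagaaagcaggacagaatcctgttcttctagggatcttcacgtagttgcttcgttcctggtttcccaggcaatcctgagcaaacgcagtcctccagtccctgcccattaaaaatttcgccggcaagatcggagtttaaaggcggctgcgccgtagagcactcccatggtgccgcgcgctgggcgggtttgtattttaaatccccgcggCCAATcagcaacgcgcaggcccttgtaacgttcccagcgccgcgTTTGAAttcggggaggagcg
Rrm2: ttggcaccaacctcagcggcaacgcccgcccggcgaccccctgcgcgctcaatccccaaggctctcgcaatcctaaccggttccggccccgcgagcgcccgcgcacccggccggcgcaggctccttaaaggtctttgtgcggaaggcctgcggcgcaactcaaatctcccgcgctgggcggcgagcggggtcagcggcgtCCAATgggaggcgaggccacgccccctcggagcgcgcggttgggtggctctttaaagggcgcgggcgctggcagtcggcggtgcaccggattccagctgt

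Total counts were 8956553 to 9501661 in the intravenous libraries and 10355125 to 14263045 in all the others, so every intravenous library was shallower than every other library. The lowest count of any member in any library was 12. Values below are counts scaled by size factors from the median of ratios (normalized counts), and a log2 fold change is a difference of group means of log2(normalized count + 1) with its standard error (SE). Genes are called at an adjusted p under 0.05, with Benjamini-Hochberg adjustment over all genes tested in limma. Markers of corneal epithelium fit the labelled tissue: Krt12, the keratin of corneal epithelium, had 264101.7 to 514420.6 normalized counts and none of the 9 markers was at 0 in any library. Libraries stood apart in neighbouring tissue: retina markers were highest in DED 3 (21120.9 summed normalized counts, 230.1 to 4597.1 elsewhere), lens markers in eye drop 2 (16813.1, 54.9 to 1974.1 elsewhere) and muscle markers in intravenous 1 and 2 (3818.9 and 2023.9, 17.8 to 450.4 elsewhere). The difference between libraries of a group was read as a chi-square per gene, which includes counting noise. It set intravenous 3 apart from intravenous 1 (51.17) and 2 (66.8), which differed less from each other (8.35). Pairs in the other groups ran from 11.52 (control 2 and 3) to 34.22 (control 1 and 2), with 30.54 for DED 1 and 2.

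The members were lowest in the intravenous group. Together they took 560 to 800.4 CPM (counts per 1e6) in the 3 intravenous libraries and 886.9 to 1403.6 in the other 8. As summed normalized counts the groups overlapped. The sums were 8561.7, 10651.6 and 7250.5 in intravenous 1, 2 and 3, beside 10635.8 in control 2 and 10035.7 in eye drop 1. The median deviation of the 43 members from their mean over the groups was -0.65, -0.16 and -0.70 on the log2 scale in intravenous 1, 2 and 3. It was 0.22, 0.02 and 0.27 in the controls, 0.52, 0.17 and 0.22 in the DED libraries and -0.20 and 0.19 in the eye drop libraries. DED 1 held the highest value of 27 members, and intravenous 3 and 1 held the lowest of 21 and 13. Intravenous 2 was thus the nearest of its group to the other libraries.

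**Figure D1:**
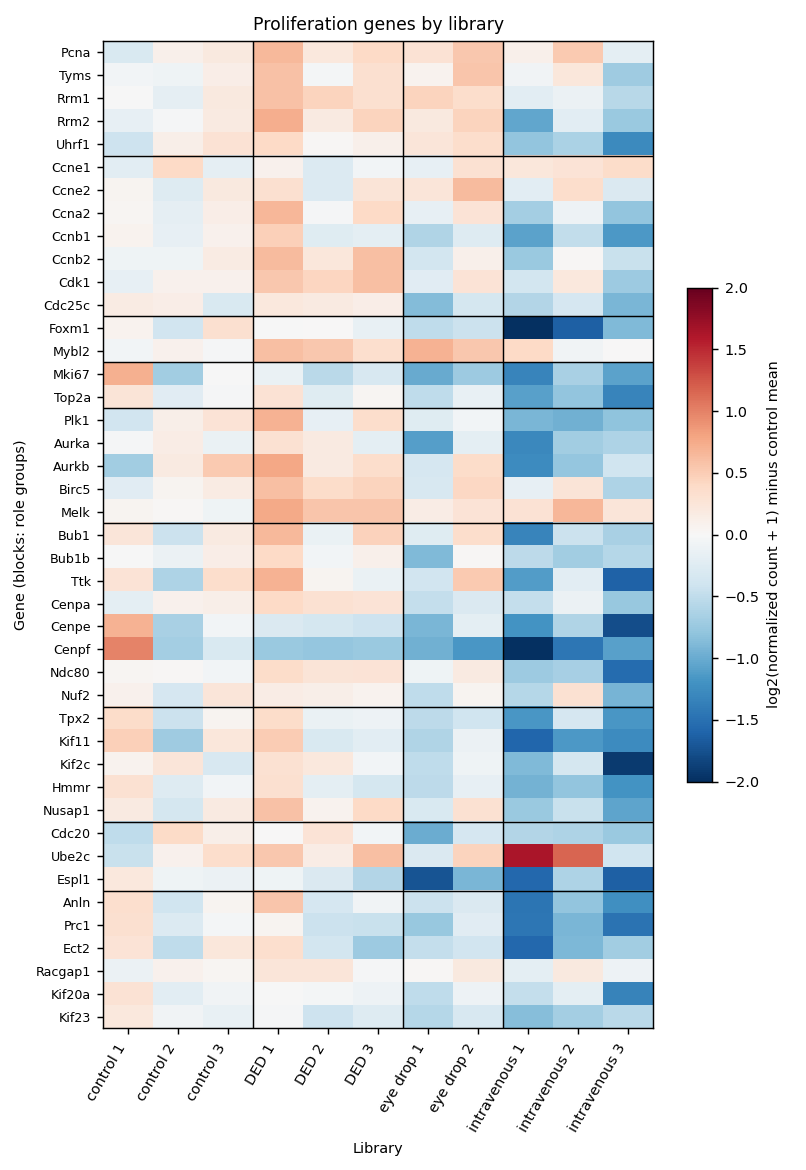
Colour gives log2(normalized count + 1) minus the control mean for each of the 43 members (rows, blocked by role) in each of the 11 libraries (columns). Blue, below control, fills most cells of the 3 intravenous columns, and DED 1 is the reddest column.

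Against the DED model, 11 of the 43 members fell with intravenous exosomes and none rose, where 1.45% of all genes tested were called and 0.49% were called lower. The 11 were Top2a, Rrm1, Rrm2, Uhrf1, Foxm1, Plk1, Ndc80, Kif11, Nusap1, Anln and Prc1. A further 30 members had a negative fold change without passing, and Ccne1 (0.37) and Ube2c (0.38) had a positive one. The median over the 43 members was -0.83 on the log2 scale, beside -0.04 over all genes tested, and 34 members had an unadjusted p under 0.05, beside 15.5% of all genes. In 33 of the 43 every intravenous library lay below every DED library, which held for 8.88% of all genes.

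Among the S phase genes, Rrm2, the regulated subunit of ribonucleotide reductase that makes deoxynucleotides, had 640.2, 437.5 and 523.7 normalized counts in the DED libraries and 187.7, 333.3 and 229.8 in the intravenous ones. The groups did not overlap, and the control libraries, at 344.0, 379.2 and 437.5, were also above all intravenous ones. Rrm2 fell by 1.11 on the log2 scale (SE 0.21, adjusted p = 0.016, limma). Its partner subunit Rrm1 had 1218.2, 1102.5 and 1012.5 in the DED libraries and 702.1, 750.7 and 553.6 intravenously, without overlap, a fall of 0.74 (SE 0.17, adjusted p = 0.0411, limma). Uhrf1, which carries DNA methylation over to the new strand, had 437.9, 338.0 and 353.5 in DED and 190.3, 212.9 and 135.9 intravenously. It lay below every other library in all 3 intravenous ones and fell by 1.08 (SE 0.22, adjusted p = 0.0197, limma). Pcna, the sliding clamp of DNA polymerase and the most abundant member per kilobase of transcript (994.2 normalized counts per kb), had 1955.4, 1452.7 and 1645.3 in DED and 1349.1, 1792.8 and 1089.9 intravenously. Its groups overlapped, and its log2 difference was -0.28 (SE 0.21, adjusted p = 0.569, limma). Tyms, which makes thymidylate, was at -0.48 (SE 0.24, adjusted p = 0.358, limma).

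Of the 7 cyclin, CDK and activator genes none passed against DED. Their median difference was -0.81. Ccna2, the cyclin of S phase and early mitosis and the most abundant of the group per kilobase, had 684.1, 422.0 and 566.5 normalized counts in DED and 269.0, 402.0 and 250.1 intravenously, without overlap (log2 -0.86, SE 0.22, adjusted p = 0.0622, limma). Ccnb1, Ccnb2 and their partner kinase Cdk1 also had every intravenous library below every DED library, with log2 differences of -0.92, -0.87 and -0.81. Ccne1, a cyclin that acts at the entry to S phase, had 168.9, 131.5 and 153.6 in DED and 186.4, 193.3 and 205.3 intravenously. Every intravenous value of Ccne1 was above every DED value, but the difference did not pass (log2 0.37, SE 0.21, adjusted p = 0.434, limma). Control 2 (209.8) was above all intravenous values of Ccne1, and eye drop 2 (197.5) was above intravenous 1 and 2. Ccne2, the relative of Ccne1, was at -0.15.

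Foxm1, a transcription factor that drives G2 and mitosis genes, had the largest fold change of the members. Its normalized counts were 101.5, 102.7 and 92.5 in DED and 21.0, 32.2 and 54.9 intravenously, and 108.0, 78.0 and 127.8 in control. The groups did not overlap, and Foxm1 fell by 1.535 (SE 0.307, adjusted p = 0.0197, limma). Mybl2, the other factor of the list, had 120.5, 114.9 and 100.4 in DED and 105.0, 75.6 and 79.5 intravenously, with overlap (log2 -0.38, SE 0.22, adjusted p = 0.429, limma).

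Top2a, the topoisomerase that untangles sister chromosomes, had the smallest p of the members. It had 801.5, 550.1 and 669.5 normalized counts in DED, 779.0, 559.2 and 640.9 in control, 461.7 and 589.9 with the eye drop and 308.4, 379.6 and 260.2 intravenously. All 3 intravenous values were below all 8 others, and Top2a fell by 1.09 against DED (SE 0.20, adjusted p = 0.0125, limma) and had a log2 fold change of -1.06 against control (SE 0.20, adjusted p = 0.00582, limma). Mki67, the gene of the proliferation marker Ki-67, had 519.0, 394.4 and 455.6 in DED and 228.3, 364.2 and 270.3 intravenously, without overlap, at -0.68 (SE 0.28, adjusted p = 0.257, limma). In control Mki67 had 932.8, 351.3 and 569.1, so control 1 was far above the others.

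**Figure D2:**
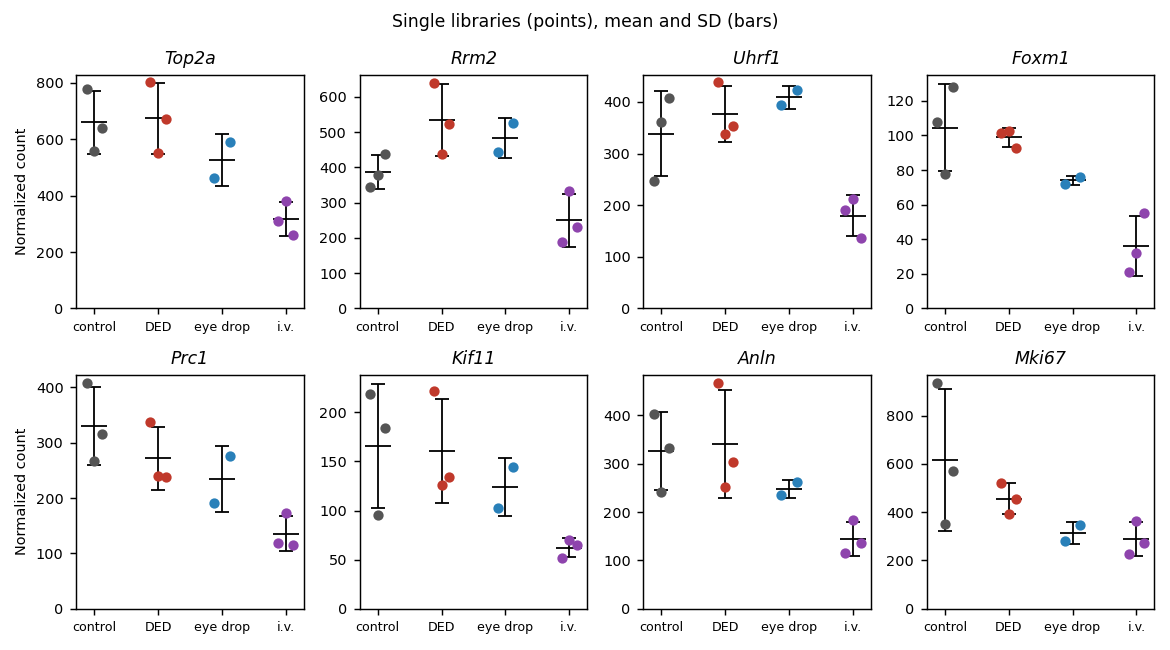
Normalized counts of 8 members in each library (points, vertical axis from 0) with mean and SD (bars) for each group. In Top2a, Rrm2, Uhrf1, Foxm1, Prc1, Kif11 and Anln the 3 intravenous points lie below all others, whereas in Mki67 they overlap control and the eye drop.

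Mitotic kinases and the kinetochore were represented by 13 members. Plk1, the polo kinase of mitotic entry, had 169.7, 92.8 and 132.7 normalized counts in DED and 55.1, 53.2 and 59.3 intravenously, and fell by 1.18 (SE 0.26, adjusted p = 0.0291, limma). The intravenous values of Plk1 lay close together and below all 8 other libraries. Aurkb, the kinase that corrects wrong spindle attachments, had 175.0, 114.9 and 130.1 in DED and 42.0, 58.8 and 76.6 intravenously, without overlap, and missed the threshold at -1.25 (SE 0.32, adjusted p = 0.0658, limma). Ndc80, a kinetochore protein that holds microtubules, had 121.2, 112.7 and 113.5 in DED and 56.4, 58.8 and 31.8 intravenously, and fell by 1.27 (SE 0.25, adjusted p = 0.0189, limma). The other 7 kinetochore and checkpoint genes (Bub1, Bub1b, Ttk, Cenpa, Cenpe, Cenpf and Nuf2) ran from -0.52 (Nuf2) to -1.19 (Ttk) without passing. Aurka (-0.96) and Birc5 (-0.65), the survivin subunit of the Aurora B complex, did not overlap with DED either. Melk, a kinase, was the least changed of the kinases (-0.22).

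Spindle genes had the lowest median of the role groups with more than 2 members, -1.11. Kif11, the motor that pushes the spindle poles apart, had 222.0, 125.9 and 134.4 normalized counts in DED and 51.2, 70.0 and 65.0 intravenously, and fell by 1.32 (SE 0.30, adjusted p = 0.0391, limma). Nusap1, a spindle microtubule protein, had 309.9, 216.5 and 271.5 in DED and 122.0, 149.9 and 98.3 intravenously, and fell by 1.11 (SE 0.23, adjusted p = 0.0258, limma). In both genes all intravenous libraries lay below all others. Tpx2, Hmmr and Kif2c were at -0.93, -0.90 and -1.20, also without overlap with DED.

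In cytokinesis, Anln, the anillin of the contractile ring, had 465.9, 250.8 and 303.7 normalized counts in DED and 115.5, 183.5 and 135.9 intravenously, and fell by 1.20 (SE 0.25, adjusted p = 0.023, limma). Prc1, which bundles microtubules of the midzone, had 337.9, 240.8 and 238.3 in DED and 119.4, 172.3 and 115.6 intravenously, and fell by 1.00 (SE 0.23, adjusted p = 0.0402, limma). Prc1 shares 911 exon bases with Rccd1 on the other strand, and the sources do not state whether counting used strand. Rccd1 had 94.5, 140.1 and 78.0 normalized counts intravenously, 160.6 to 193.9 in DED and 170.4 to 261.8 in control. Every intravenous value of Rccd1 was thus below every DED and control value, as for Prc1. With the eye drop Rccd1 had 115.2 and 146.3, so intravenous 2 overlapped that group. Whether Rccd1 reads were counted for Prc1 was not tested. Ect2, Kif20a and Kif23 were at -0.81, -0.62 and -0.45. Racgap1, a regulator of the ring's RhoA activity, had 694.0, 697.1 and 577.8 in DED and 513.1, 675.1 and 546.4 intravenously, and its difference was -0.19 (SE 0.17, adjusted p = 0.647, limma).

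**Figure D3:**
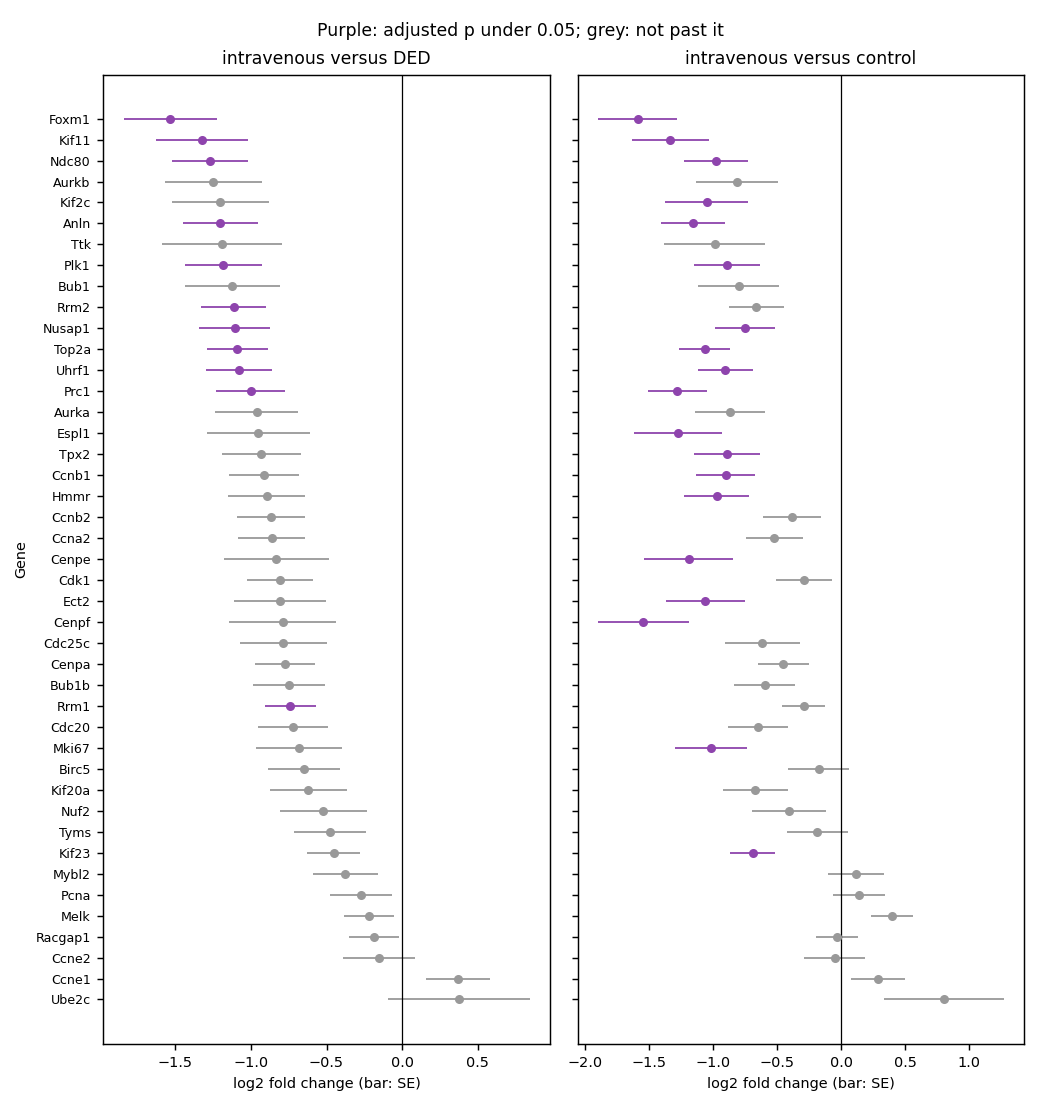
Log2 fold change (horizontal axis, bar SE) of each member in intravenous against DED (left) and against control (right), in the order of the left panel. Purple points passed the adjusted threshold, 11 on the left and 19 on the right, and all purple points lie left of 0.

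The anaphase gene Ube2c was, with Ccne1, 1 of the 2 members with a positive difference against DED, and it did not pass. Ube2c is the ubiquitin-conjugating enzyme of the anaphase-promoting complex. It had 442.4, 338.0 and 461.7 normalized counts in DED and 952.8, 686.3 and 231.3 intravenously, so intravenous 1 and 2 were above and intravenous 3 below every DED library (log2 0.38, SE 0.47, adjusted p = 0.766, limma). On GRCm38 it lies on the plus strand of chromosome 2 (164769898 to 164778822) and shares 592 exon bases with Tnnc2, the troponin C of fast skeletal muscle on the other strand. Tnnc2 had deposited, unscaled counts of 617 and 300 in intravenous 1 and 2, 107 in DED 3 and at most 19 in the other 8 libraries. The libraries high in Tnnc2 were those highest in muscle markers, and whether Tnnc2 reads were counted for Ube2c was not tested. Espl1, the protease separase, and Cdc20, the activator of the complex, were at -0.95 and -0.72, both with every intravenous library below every DED one.

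**Figure D4:**
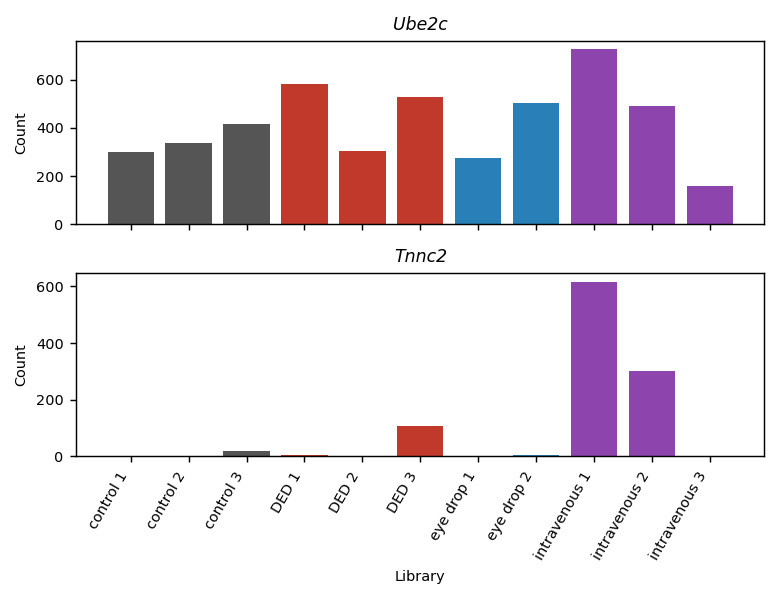
Deposited counts, recovered by rounding and not scaled, of Ube2c (top) and of the overlapping muscle gene Tnnc2 (bottom) in each library; vertical axes start at 0. Tnnc2 reached 617 and 300 in intravenous 1 and 2, the libraries where Ube2c was highest on the normalized scale.

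Against untreated control, 19 of the 43 members fell with intravenous exosomes and none rose, where 11.3% of all genes were called and 4.68% were called lower. Of the 19, 9 also fell against DED: Uhrf1, Foxm1, Top2a, Plk1, Ndc80, Kif11, Nusap1, Anln and Prc1. The other 10 were Ccnb1, Mki67, Cenpe, Cenpf, Tpx2, Kif2c, Hmmr, Espl1, Ect2 and Kif23. Both comparisons use the same intravenous libraries. Prc1 had the smallest p, with a fall of 1.28 (SE 0.23, adjusted p = 0.00493, limma), and Foxm1 the largest fold, at -1.59 (SE 0.31, adjusted p = 0.00677, limma). Anln fell by 1.16, Kif11 by 1.33, Cenpf by 1.54, Uhrf1 by 0.90, Kif23 by 0.69, Ndc80 by 0.975 and Ccnb1 by 0.90. The median over the members was -0.75, beside -0.01 over all genes, and in 22 members every intravenous library lay below every control library, which held for 13.2% of all genes. All 5 spindle genes and 4 of 6 cytokinesis genes were called, but 1 of the 5 S phase genes and 1 of the 7 cyclin, CDK and activator genes. Several of the members called against control alone are long transcripts that control 1 held at a high level, such as Cenpf (352.1 in control 1, 109.7 and 142.7 in the other controls) and Cenpe (173.1, 67.4 and 102.6).

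No member was called between the DED model and control, where 1.25% of all genes were called. By limma 7 members had an unadjusted p under 0.05, beside 17.4% of all genes, and voom gave 0 calls and 8 members at that unadjusted p. The smallest adjusted p belonged to Melk, which had 516.3, 506.3 and 468.3 normalized counts in control and 839.4, 728.0 and 729.7 in DED, without overlap (log2 0.62, SE 0.16, adjusted p = 0.0744, limma). Next were Rrm1 (0.45), Cdk1 (0.52), Mybl2 (0.49), Ccnb2 (0.485) and Rrm2 (0.45), none past the threshold. The median over the members was 0.155, beside 0.03 over all genes, with 31 members above 0. Every DED library lay above every control library for 9 members (Pcna, Rrm1, Ccnb2, Cdk1, Mybl2, Birc5, Melk, Cenpa and Ndc80), which held for 13.3% of all genes.

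No member was called between the eye drop and the DED model, where 0.193% of all genes were called. The median was -0.35, with 38 of 43 below 0, and 8 members had an unadjusted p under 0.05 by limma (7.05% of all genes) and 9 by voom. Cenpa, the histone of the centromere, had the smallest p, with 251.5, 235.3 and 232.2 normalized counts in DED and 136.8 and 156.2 with the eye drop, without overlap (log2 -0.71, SE 0.22, adjusted p = 0.429, limma). Cdc20 (-0.75), Espl1 (-0.998), Ccnb2 (-0.62), Aurka (-0.74) and Cdc25c (-0.78), the phosphatase that activates CDK1, came next. Both eye drop libraries lay below every DED library for 17 members, which held for 13.7% of all genes. The 5 S phase genes were at 0.13 to -0.13, and in none of them did both eye drop libraries lie below every DED library. Without eye drop 1, the median of the members was -0.09.

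Against control, the eye drop group had a median of -0.22 over the members and no call, where 0.00472% of all genes were called. In limma 6 members, and in voom 8, had an unadjusted p under 0.05, beside 10.6% of all genes in limma. The smallest p belonged to Espl1 (-1.32, SE 0.38, adjusted p = 0.226, limma), Mki67 (-0.87, SE 0.32) and Cenpf (-1.06, SE 0.40). Without eye drop 1 the median was 0.02. Between intravenous and eye drop no gene in all was called (0% of genes tested), while 16 members by limma and 14 by voom had an unadjusted p under 0.05, beside 9.21% of all genes in limma. The members' median was -0.49. Uhrf1 (393.3 and 423.8 normalized counts with the eye drop) was lowest in p at -1.21 (SE 0.24, adjusted p = 0.325, limma), followed by Rrm2 (-0.98) and Ndc80 (-1.02). Every intravenous library lay below both eye drop libraries for 16 members, which held for 12.7% of all genes, and below all 8 other libraries for 12 members (Rrm2, Uhrf1, Foxm1, Top2a, Plk1, Bub1, Ndc80, Kif11, Hmmr, Nusap1, Anln and Prc1), which held for 2.66%. The test of any difference between the 4 groups called 11 members, beside 4.51% of all genes.

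Other lists of cell cycle genes were read beside the 43. Of 65 other mitotic genes, 6 fell intravenously against DED, among them Incenp (-1.23), the scaffold of the Aurora B complex, Pbk (-1.32) and the condensin subunit Ncapd2 (-1.23). Their median was -0.825, with 64 of 65 below 0. Of 48 other S phase genes 6 fell, among them the DNA ligase gene Lig1 (-1.01), the nucleotide synthesis gene Cad (-1.05) and Dnmt1 (-0.74), with a median of -0.55. Of 15 licensing genes 1 fell, Mcm4 (-0.81), with a median of -0.70. In the list of 20 E2F and DREAM regulators 1 gene fell, Myc (-0.88), and the median was -0.27. Myc is itself neither an E2F nor a DREAM subunit gene. Of these lists 9.23%, 12.5%, 6.67% and 5% were called in turn, beside 1.45% of all genes (0.49% called lower). A single call says little of a list as short as the last 2. Against control 17 other mitotic, 6 other S phase and 2 licensing genes fell, as did 3 genes of the E2F and DREAM list, E2f3, E2f7 and Myc. Against control 2 S phase genes, Rpa3 (0.76) and Chaf1a (0.64), rose. The list of CDK inhibitors and D cyclins also holds other CDK genes, among them Wee1, Pkmyt1, Cdk6, Cdc25a and Cdc25b. In this list Cdkn1c (1.10) and Cdkn2b (0.81) rose against control and Wee1 (-0.78) and Cdc25b (-0.78) fell. Among the growth factor genes Hbegf (1.03) rose and Egfr (-0.998), Fgfr2 (-0.69) and Igf1r (-1.0) fell. The shares called were 26.2%, 16.7%, 13.3%, 15%, 23.5% and 28.6% of the mitotic, S phase, licensing, E2F and DREAM, CDK inhibitor and growth factor lists, beside 11.3% of all genes. Over the 17 genes of the CDK inhibitor and D cyclin list, its other CDK genes included, the median intravenous against DED was -0.02. In that comparison Ccnd2, a cyclin of the entry into the cycle, rose (1.35, SE 0.18, adjusted p = 0.00127, limma). Ccnd2 had fallen in DED against control (-1.57, SE 0.18, adjusted p = 0.000481, limma) and rose with the eye drop against DED (1.575, SE 0.20, adjusted p = 0.0026, limma). None of the 14 growth factor ligands and receptors passed intravenously against DED. In DED against control, the 3 genes with the smallest p in each list included 1 that passed, Ccnd2. They were Pbk (0.66), Cks1b (0.61) and Shcbp1 (0.81) among mitotic genes, Rpa3 (0.79), Tk1 (0.53) and Tipin (0.56) among S phase genes, and Gmnn (0.75), Orc6 (0.46) and Mcm7 (0.33) among licensing genes. The regulators E2f7 (-0.76), Rb1 (-0.455) and Rbl2 (-0.33), the inhibitors Cdkn2b (0.72) and Cdkn1c (1.02), and the growth factor genes Fgfr2 (-0.71), Igf1 (2.11) and Areg (1.11) completed them.

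**Figure D5:**
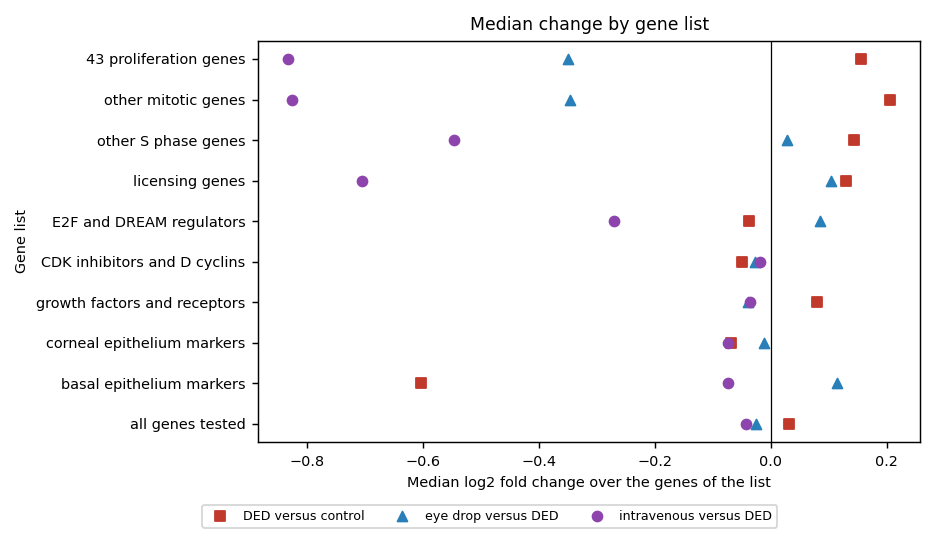
Median log2 fold change (horizontal axis) of each gene list (rows) in DED against control (squares), eye drop against DED (triangles) and intravenous against DED (circles), with all genes tested in the bottom row. The circles of the 43 members and the other mitotic genes lie at -0.83, and those of the corneal epithelium markers and all genes lie near 0.

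Markers and technical measures were read beside these values. Corneal epithelium markers had a median of -0.07 intravenously against DED, with none of 9 called. Of 8 basal epithelium markers 1, Krt15, rose against DED, and 3, Trp63, Itgb4 and Col17a1, fell against control. These calls were 12.5% and 37.5% of the 8, beside 1.45% and 11.3% of all genes. In DED against control the 8 markers had a median of -0.60, and Itgb4 and Col17a1 fell (25%, beside 1.25% of all genes called). Krt5, which is also in the corneal epithelium list, and Krt15 made up 88.9% to 95.9% of the summed level of the 8 basal markers, so the sum says little of the others. That sum was 314975.3 to 356546.5 normalized counts intravenously, 265335.3 to 341914.2 in DED and 263695.5 to 367066.8 in control. Conjunctival markers were higher intravenously, with a summed level of 86200.8 to 108011.9 against 41736 to 64514.3 elsewhere. Among the 4 tested, Krt4, Krt13 and Krt7 rose against DED (75%, beside 1.45% of all genes called). The goblet cell gene Muc5ac was the marker not tested. It was at 0 in control 2, every DED and eye drop library and intravenous 2 and 3. Its normalized count was 17.1 in intravenous 1 and at most 2.8 in the other controls. The part of these markers in the lower proliferation genes was not tested. Changes were related to transcript length over all genes. Against DED, genes split into 3 equal length classes had medians of 0.09 (shortest) and -0.145 (longest) intravenously, and against control 0.26 and -0.25. By library, the median log2 deviation of the longest class less that of the shortest was -0.404, -0.542 and 0.061 in intravenous 1, 2 and 3. This difference was 0.472, 0.154 and 0.249 in control 1, 2 and 3, and -0.152 to 0.066 in the DED and eye drop libraries. The members' medians against DED in those classes were -0.775 (3 members), -0.82 (22 members) and -0.86 (18 members) from shortest to longest. Against control they were -0.38, -0.65 and -0.99, lower with each class, and 0, 6 and 13 of the 19 calls lay in them. With the length trend removed from each library, 12 were called against DED and 15 against control, with medians of -0.81 and -0.71. With every library thinned to the lowest total, 11 and 17 were called. Exons of 11 members overlap those of another gene, and 12 members have a stretch of at least 200 bases with at least 95% identity to another gene, so their counts are uncertain. Among the members called against DED these are Top2a, Foxm1, Plk1, Nusap1 and Prc1 by overlap, and Rrm2, Uhrf1, Ndc80 and Prc1 by a similar stretch. The similar genes of Rrm2 (Gm48455) and Uhrf1 (Gm5648) had at most 1 and 2 counts in a library.

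The number of calls depended on single libraries. Against DED it was 0 without DED 1, 0 without DED 3, 3 without intravenous 1, 7 without either eye drop library, 15 without intravenous 2 and 16 without intravenous 3. The share of all genes called moved too, to 0.316% without DED 1, 0.408% without DED 3, 0.812% without intravenous 1, 0.905% and 0.886% without eye drop 1 and 2, 0.915% without intravenous 2 and 7.59% without intravenous 3. The median stayed between -0.77 and -1.05, and 41 or 42 members were below 0 in each of these fits. Against control it was 2 without control 1, 6 without control 3 and 5 without intravenous 1, where 1.2%, 4.61% and 4.25% of all genes were called, with a median between -0.62 and -0.89. With DED 3, eye drop 2 and intravenous 1 left out together, which held most retina, lens and muscle RNA in turn, the limma fit called 0 members in either comparison, and the medians were -0.82 and -0.66. The counts over all genes were 46 and 188 there (0.228% and 0.933%), and 27 and 23 members had an unadjusted p under 0.05.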

How the data were processed

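Corneal RNA libraries were made with a NEBNext Ultra RNA kit from total RNA, per the labels' protocols, which do not say whether strand was kept. The genome build was mm9, per the submitters' processing notes; the aligner, counter and gene models were not given in the sources used here. The deposited table holds log2 values, and per the values these are log2 of a whole count plus 1, whole within 0.01 for 99.9748% of values, with no scaling between libraries. Counts were recovered by rounding. Lines that were not whole (10) or named by a date (9) were left out, at most 0.0495% of a library's counts.

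Counts were divided by median-of-ratios size factors, and log2(normalized count + 1) was fitted where 3 or more libraries reached a normalized count of 1. A model of 4 group means used limma 3.58.1 (R 4.3.3, trend and robust estimation, 7 residual and 9.59 median prior degrees of freedom). Two-sided p-values were adjusted by Benjamini-Hochberg over 21203 genes in each of 6 comparisons. For raw counts, the plan kept this limma fit as an alternative to a count test. The deposited values were raw counts, and the limma fit was still used for the main results, which departs from the plan. Voom on the counts called 8 members intravenously against DED and 13 against control, where the main fit called 11 and 19. Transcript lengths and exon overlaps came from GENCODE on GRCm38, matched by symbol for all 43 members. Genes were named by rule: the 6 members with the smallest p in the comparisons with DED, the 3 in the others, up to 10 called members, and the 3 genes of each other list with the smallest p in DED against control. Other list genes printed were chosen after their values were seen. The members and lists were chosen with earlier results of these data known.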

Additional observations from a re-analysis of the deposited data

How the results depend on the processing

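The members' median kept its sign in every setting and comparison but 1, eye drop against control without eye drop 1, while counts of calls moved. With 75th percentile scaling, another pseudocount, other filters and voom, no count moved by over 1.5 times. Voom called 8 members intravenously against DED and 13 against control. Leaving out 1 library at a time gave 0 to 1 calls in DED against control, 0 to 16 intravenously against DED, 2 to 18 against control, 0 to 4 against the eye drop and 0 to 19 in the test of any difference. The medians ran from -0.533 to -0.091 for eye drop against DED and from -0.439 to 0.024 for eye drop against control. Library totals gave 24 calls against DED, 33 against control (median -1.091) and 30 for any difference. Counts as deposited gave 40, 37, 21 against the eye drop and 38, with medians of -1.438, -1.411 and -1.164; these 2 scalings moved the median of all genes intravenously against DED to -0.248 and -0.581, and the members' median less that of all genes was -0.804 and -0.857. Size factors over epithelial markers gave 1 call in DED against control and 9 intravenously against control. Limma without trend and robust estimation gave 0 against DED, 2 against control and 0 for any difference. Fitting only the 2 groups compared gave 1, 0 and 10 calls in DED against control, intravenous against DED and intravenous against control. The third eye drop column gave 1 call in DED against control, 19 intravenously against DED and 20 for any difference. Without DED 3, eye drop 2 and intravenous 1 together the counts were 0 against DED, 0 against control and 0 for any difference, with fewer samples. The cause of the other moves was not tested. With the replicate number as a block, 11 members were called against DED, 17 against control and 8 for any difference. Departures of same-numbered samples from their group means correlated at -0.15 to 0.241 over 15 pairs, 1 of them over 0.1. In groups of 2 or 3 libraries these departures depend on each other. These correlations therefore cannot decide whether the numbers pair the samples. The length and thinning settings were chosen after seeing the data.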
